A study of Mus musculus with 18 samples.

Results

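The genes described here build, load and switch on the MHC class II antigen-presenting machinery: Cd74, H2-Aa, H2-Ab1, H2-Eb1, H2-DMa, H2-DMb1 and Ciita. They were chosen by name, taking every probe set that the platform annotation ties to exactly 1 of these symbols, and the value of a gene on an array is the median log2 signal of its probe sets. All 7 had a value, of 20352 genes in all, and all 7 were among the 16281 genes bright enough to be tested. The RNA came from the caudal part of the corpus callosum, a white matter tract, of C57BL/6 mice, and was measured on 18 one-colour oligonucleotide arrays. Every mouse, controls included, ate chow with 0.2% cuprizone (CPZ), which binds copper, is toxic to oligodendrocytes and so removes myelin. The mice were wild type (WT) or carried a knockout of Trem2 (TREM2-/-, here KO), which encodes a lipid-sensing receptor of microglia and other myeloid cells. The 4 groups were WT at 6 weeks (4 arrays), KO at 6 weeks (3), WT at 12 weeks (5) and KO at 12 weeks (6).

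The labels describe a stage once as the age of the mice and once as a range of ages with several feeding times, so whether 6 and 12 weeks count age or weeks on CPZ is not settled. No array of mice kept off CPZ was used here, so no value below is a change caused by CPZ. The labels do not say that each array is a separate mouse, and the p-values then measure only the spread between these arrays, which may be technical. The number of arrays limits the precision. The labels do not say which exons of Trem2 are missing. The Trem2 value checks the labels: it was 6.44 to 8.42 in WT and 5.42 to 6.05 in KO at 6 weeks, and 6.83 to 7.86 in WT and 4.79 to 5.59 in KO at 12 weeks, so the genotypes did not overlap at either stage. Its log2 difference, KO minus WT, was −1.49 ± 0.36 (SE) at 6 weeks (limma adjusted p = 0.247) and −2.09 ± 0.28 at 12 weeks (limma adjusted p = 0.00251).

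MHC class II molecules are pairs of an α and a β chain that carry peptides of ingested protein to the surface of antigen-presenting cells, where CD4 T cells read them. New pairs bind the invariant chain, the product of Cd74, which blocks the groove and guides the complex to late endosomes. There proteases cut the invariant chain down to a short remnant, and H2-DM swaps that remnant for a peptide. The transactivator CIITA binds no DNA itself but sits on a complex assembled on the conserved X and Y boxes of class II promoters, and interferon-γ is its classic inducer. Resting microglia hold little class II protein, and raise it in many models of myelin loss, while macrophages at brain borders and dendritic cells hold more.

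Patterns of the X and Y boxes can be read in the promoters of 3 members. They are shown because the grouping by name did not use them. RefSeq promoter windows of mouse assembly GRCm38.p6, 250 bases before to 50 bases after a gene's start, were held for 4 of the 7 members. The stretches below cover the last 120 bases before the start of 3 of them, 5′ to 3′ on the gene's strand. Capitals mark the letters CTNGNAACT, an X box pattern, and TGATTGG, the Y box with its inverted CCAAT. The H2-Aa stretch lies at chr17:34287824-34287943 on the minus strand, the H2-Eb1 stretch at chr17:34305747-34305866 on the plus strand and the H2-DMb1 stretch at chr17:34153071-34153190 on the plus strand.
H2-Aa: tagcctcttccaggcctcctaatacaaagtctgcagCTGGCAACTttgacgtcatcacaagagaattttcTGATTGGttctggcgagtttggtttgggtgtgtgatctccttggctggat
H2-Eb1: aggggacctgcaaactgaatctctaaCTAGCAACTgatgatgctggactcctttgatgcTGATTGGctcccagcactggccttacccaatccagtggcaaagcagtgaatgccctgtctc
H2-DMb1: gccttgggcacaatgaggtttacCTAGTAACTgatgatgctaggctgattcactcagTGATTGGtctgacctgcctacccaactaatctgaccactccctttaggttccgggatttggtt
The X pattern starts 84, 94 and 97 bases before the start of H2-Aa, H2-Eb1 and H2-DMb1, and the Y pattern 50, 61 and 63 bases before it. The gap between the patterns is 25, 24 and 25 bases. Both strands of all 32851 promoter windows of the table were searched: 4.1% held the X pattern, 7.82% the Y pattern, and 5 windows, 0.0152%, held both in this order 10 to 30 bases apart. Those 5 are H2-Aa, H2-Eb1, H2-DMb1, 1700048F04Rik and BC051142. The patterns do not overlap each other, and they were written with the members' sequences in view, so the count describes the windows and tests nothing. Neither of the H2-DMa windows holds either pattern. Of other class II genes, H2-DMb2, H2-Oa, H2-Ob and H2-Eb2 hold the Y pattern alone. Promoters of Cd74, H2-Ab1 and Ciita were not used here.

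The first question was whether loss of Trem2 altered class II transcripts at 6 weeks. Cd74 and H2-Ab1 were lower in every KO array than in any WT array, by 3.88-fold and 2.49-fold, and H2-Aa and H2-Eb1 were lower on average with groups that overlapped. H2-DMa, H2-DMb1 and Ciita differed by a log2 of 0.24 or less. None of the 7 differences passed the limma test over all genes (adjusted p under 0.05), against 0.043% of all genes tested (7 genes). Without adjustment 2 of the 7, Cd74 and H2-Ab1, had p under 0.05, as did 885 of 16281 genes. The median log2 difference of the 7 was −0.46, beside −0.003 over all genes tested, with 6 of 7 lower in KO.

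Cd74, the invariant chain, read 6.87, 6.81, 8.75 and 6.82 in the 4 WT arrays of 6 weeks and 3.94, 5.88 and 6.25 in the 3 KO arrays. WT replicate 3 stood well above the other WT arrays, KO replicate 1 well below the other KO arrays, and the genotypes did not overlap. The means were 7.31 ± 0.96 (SD, n = 4) and 5.36 ± 1.24 (SD, n = 3). The log2 difference was −1.96 ± 0.69 (SE; 95% interval −3.40 to −0.52; limma adjusted p = 0.730).

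H2-Ab1, the β chain of I-A, the only classical class II pair that C57BL/6 mice make, read 7.08, 7.09, 8.64 and 6.36 in WT and 5.47, 6.29 and 6.16 in KO. The lowest WT array, replicate 4, lay just above the highest KO array, replicate 2. The means were 7.29 ± 0.96 (SD, n = 4) and 5.97 ± 0.44 (SD, n = 3). The log2 difference was −1.32 ± 0.44 (SE; 95% interval −2.24 to −0.39; limma adjusted p = 0.678). Of all genes tested, 5.07% (825 genes) had groups that did not overlap at 6 weeks, against 2 of the 7 members.

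H2-Aa, the α chain of I-A, read 6.85, 6.71, 8.47 and 6.46 in WT and 5.54, 6.30 and 7.09 in KO. The highest KO array, replicate 3, lay above 3 of the 4 WT arrays. The log2 difference was −0.81 ± 0.45 (SE; limma adjusted p = 0.943). H2-Eb1, the β chain of I-E, read 5.18, 5.24, 6.55 and 4.31 in WT and 4.41, 5.06 and 5.13 in KO. The KO arrays lay within the range of the WT arrays, and the difference was −0.46 ± 0.48. C57BL/6 mice make no I-E α chain, and its gene H2-Ea was under the brightness filter here, with group means of 2.77 to 3.17.

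The genes of H2-DM, the peptide editor, showed no separation. H2-DMa read 6.39, 5.73, 7.07 and 5.29 in WT and 5.62, 6.63 and 5.40 in KO, a log2 difference of −0.24 ± 0.35 (SE). H2-DMb1 read 6.38, 6.75, 7.40 and 6.00 in WT and 5.93, 7.61 and 5.69 in KO, a difference of −0.22 ± 0.42. For both genes the arrays of the genotypes were interleaved, and KO replicate 2 was the highest KO array.

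Ciita, the transactivator, read 4.82, 4.56, 4.05 and 4.02 in WT and 4.82, 4.13 and 4.40 in KO at 6 weeks. The difference was 0.08 ± 0.24 (SE; 95% interval −0.41 to 0.58), with complete overlap. WT replicate 3, the highest of all 18 arrays for Cd74, H2-Aa, H2-Ab1 and H2-DMa, was the second lowest of the 4 WT arrays for Ciita.

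**Figure D1:**
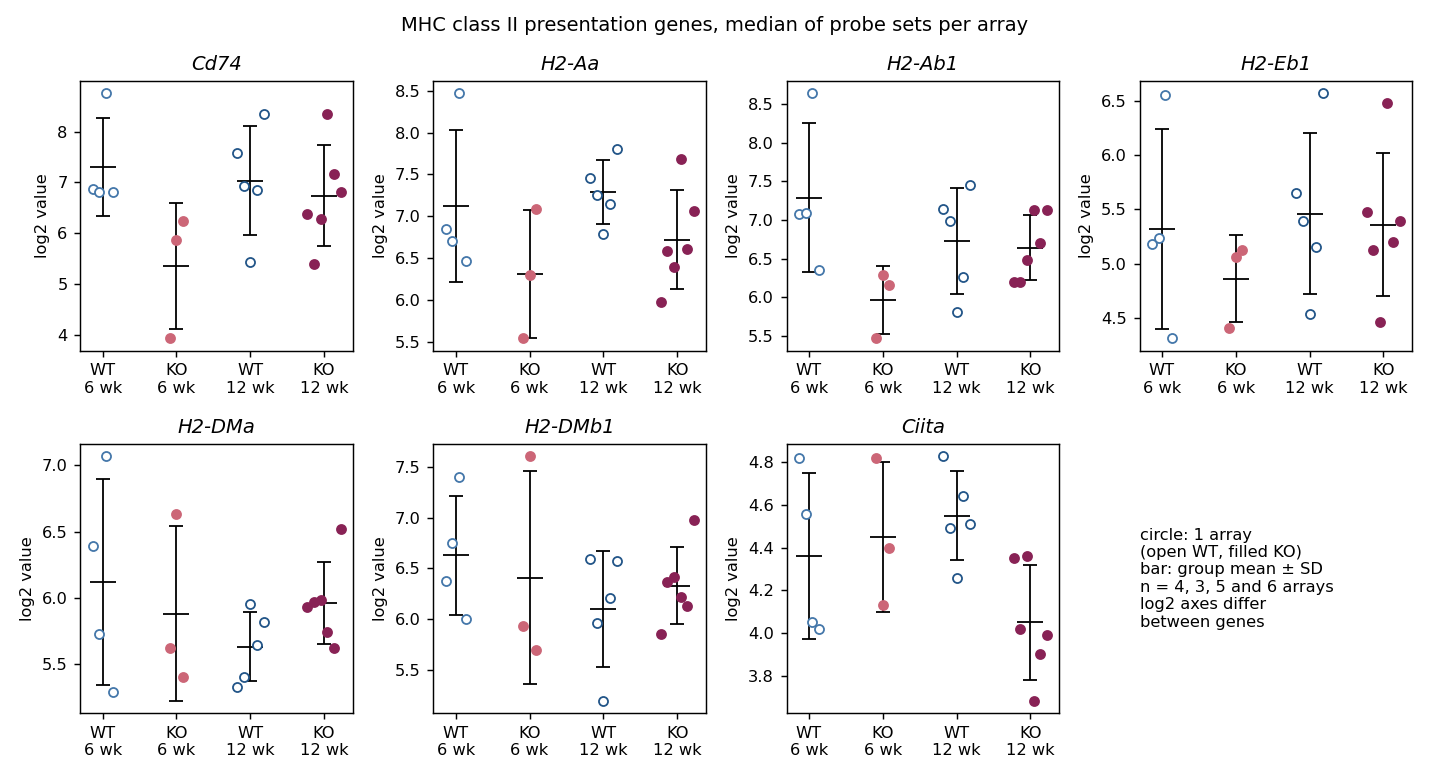
Log2 value of each of the 7 genes (y axis, a scale of its own per gene) on each of the 18 arrays, by genotype and stage (x axis). Open circles are WT arrays and filled circles KO arrays, and bars give the group mean ± SD. Cd74 and H2-Ab1 at 6 weeks are the only pairs of genotypes that do not overlap, and WT replicate 3 of 6 weeks is the top circle of that group in 6 of the 7 panels.

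The 6-week values rest on few arrays. Without WT replicate 3 the median log2 difference of the 7 genes was −0.046 in place of −0.46, Cd74 was −1.48 and H2-Ab1 −0.87. Without KO replicate 2 the median was −0.80. No member passed in any of these fits. Arrays were sexed by Xist and genes of the Y: within males (2 KO and 2 WT arrays) Cd74 differed by −1.93 and H2-Ab1 by −1.20, and within females (1 KO and 2 WT arrays) by −1.54 and −1.34.

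Single probe sets showed where the median hides a spread. All 12 probe sets of Cd74 were lower in KO at 6 weeks, with log2 differences from −3.73 to −0.91, and all 6 of H2-Ab1, from −2.42 to −0.66. Of the 5 probe sets of H2-Aa, 4 differed by −2.22 to −2.31 and the remaining one, probe set 10450160, by −0.09. That probe set was 6.46 to 7.40 in WT and 6.30 to 7.09 in KO at 6 weeks. As the third brightest of 5, it was often the median of the gene on an array. The brightest probe set of H2-Aa was chosen by its mean over all arrays. At 6 weeks it stood at 9.28 ± 0.89 for WT (SD, n = 4) and 6.97 ± 0.81 for KO (SD, n = 3). Its arrays, 8.39 to 10.50 and 6.28 to 7.87, did not overlap. The 5.07% of all genes without overlap was counted on gene medians, and no share is given for brightest probe sets. With the brightest probe set standing for each gene, the 6-week differences were −2.33 for Cd74, −2.31 for H2-Aa, −1.99 for H2-Ab1 and −1.46 for H2-Eb1, and the median of the 7 was −1.46 in place of −0.46. No member passed on these values (limma adjusted p from 0.547 for H2-Aa upward), nor with the mean of the probe sets, where the smallest was 0.318, also for H2-Aa.

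H2-Eb1 had 6 of 7 probe sets lower in KO at 6 weeks, from −1.46 to 0.13, with the brightest at the low end. H2-DMa, counted as lower on its gene median, had only 3 of 6 probe sets lower, from −0.21 to 0.76, and its brightest probe set differed by −0.02. H2-DMb1 rests on 1 probe set. A further 3 probe sets are annotated to both H2-DMb1 and its near copy H2-DMb2 and were left out, and they differed by 0.64, −0.60 and 0.41 at 6 weeks. Ciita had 14 of 27 lower, and 8 of its 27 had a mean at or under 3.41, the log2 level under which genes were left out of the test, so differences of those 8 are uncertain in size.

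**Figure D2:**
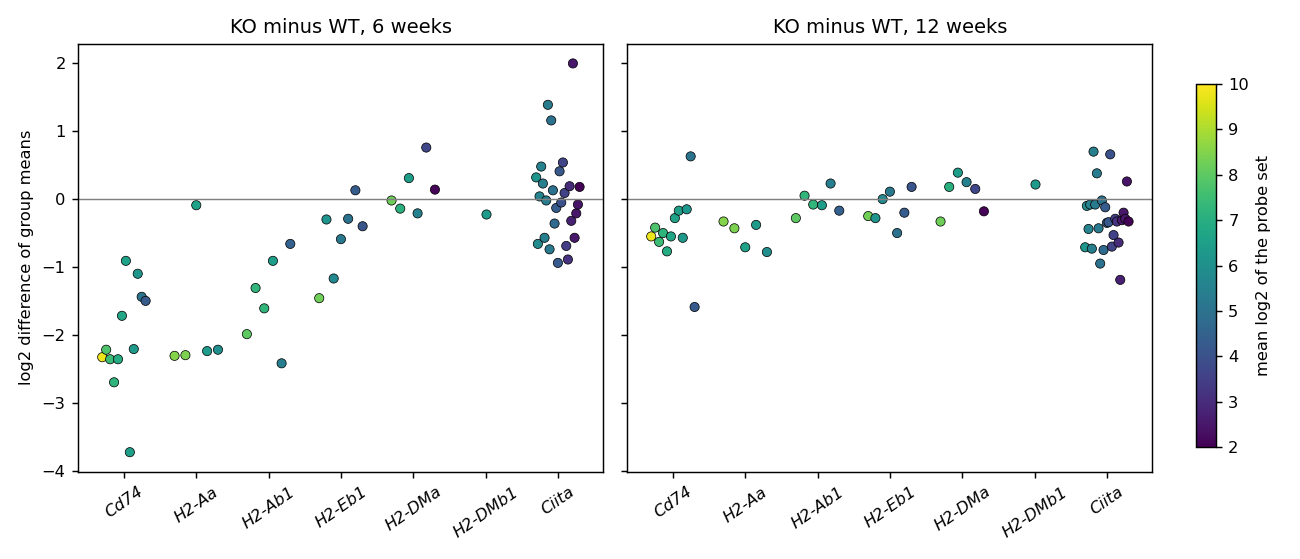
Log2 difference of group means, KO minus WT, for every probe set of the 7 genes at 6 weeks (left) and 12 weeks (right). Each point is 1 probe set, ordered within a gene from the brightest on the left, and its colour gives its mean log2 value over all 18 arrays. At 6 weeks all points of Cd74, H2-Aa and H2-Ab1 lie under 0. At 12 weeks they run from −1.59 to 0.63 for Cd74, −0.78 to −0.33 for H2-Aa and −0.28 to 0.23 for H2-Ab1.

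At 12 weeks the genotypes overlapped for all 7 genes, and the differences were smaller for Cd74 and H2-Ab1 than at 6 weeks. None of the 7 passed, against 0.43% of all genes tested (70 genes). None had groups without overlap, against 2.46% of all genes. Without adjustment only Ciita had p under 0.05, as did 1808 genes. The median log2 difference was −0.10, beside 0.017 over all genes, with 5 of 7 lower in KO.

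Cd74 ran from 5.44 over 6.93 at the median to 8.34 in WT (7.57, 6.93, 5.44, 6.86 and 8.34) and from 5.41 over 6.60 to 8.35 in KO. The ranges were nearly the same, and the difference was −0.29 ± 0.55 (SE; 95% interval −1.43 to 0.85; limma adjusted p = 0.875). H2-Ab1 read 7.15, 6.99, 5.81, 6.26 and 7.46 in WT, and its lowest, median and highest KO values were 6.20, 6.59 and 7.13. All KO arrays lay inside the WT range, and the difference was −0.09 ± 0.35.

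H2-Aa read 7.46, 7.25, 6.79, 7.15 and 7.81 in WT, and its lowest, median and highest KO values were 5.97, 6.60 and 7.69. Of the 6 KO arrays, 4 lay under the lowest WT array, and the difference was −0.57 ± 0.35 (SE; limma adjusted p = 0.574). All 5 of its probe sets were lower in KO, with differences from −0.78 to −0.33. H2-Eb1 read 5.65, 5.39, 4.54, 5.15 and 6.57 in WT and 5.48, 5.13, 4.46, 6.48, 5.20 and 5.39 in KO, with interleaved arrays and a difference of −0.10 ± 0.38.

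Both H2-DM genes had means higher in KO at 12 weeks, without passing. H2-DMa averaged 5.63 ± 0.26 for WT (SD, n = 5) and 5.96 ± 0.31 for KO (SD, n = 6), a difference of 0.33 ± 0.28 (SE), and H2-DMb1 was 6.10 ± 0.57 and 6.33 ± 0.38, a difference of 0.23 ± 0.33. The brightest probe set of H2-DMa went the other way, by −0.33, so no direction holds for that gene.

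Ciita read 4.83, 4.49, 4.26, 4.64 and 4.51 in WT and 4.35, 4.02, 4.36, 3.68, 3.90 and 3.99 in KO at 12 weeks. Only WT replicate 3 lay within the KO range. The means were 4.55 ± 0.21 (SD, n = 5) and 4.05 ± 0.27 (SD, n = 6). The log2 difference was −0.50 ± 0.19 (SE; limma adjusted p = 0.325), 1.41-fold lower, with 23 of 27 probe sets lower in KO. It was −0.81 within females and −0.22 within males.

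The 12-week arrays were deposited in 2 runs of accession numbers, each with both genotypes, and whether the runs mark a batch is not stated. The first run held female WT and male KO arrays and the other run male WT and female KO arrays. Inside a run the genotypes thus also differed in sex. Inside a sex they also differed in run, for the Ciita values above as well. The median difference of the 7 genes was −0.49 in the first run (3 KO and 2 WT arrays) and 0.27 in the second (3 KO and 3 WT arrays). It was 0.17 within females and −0.22 within males. Cd74 differed by −1.22 in the first run and 0.57 in the second, and whether its direction turned with run or with sex cannot be told apart. Ciita differed by −0.42 and −0.61 in the same runs.

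**Figure D3:**
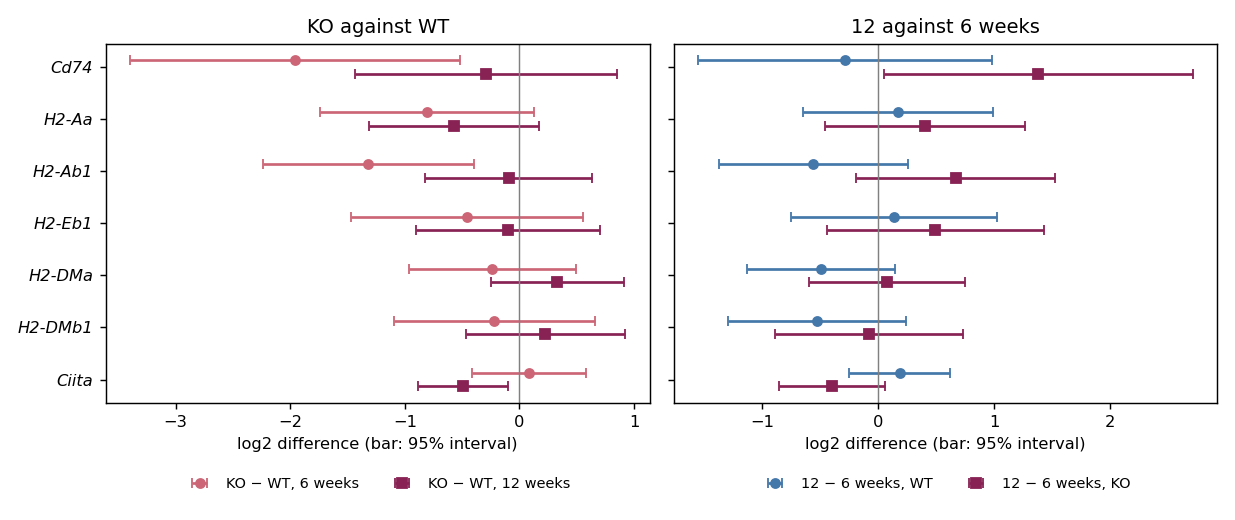
Log2 differences of the 7 genes with 95% intervals from the limma fit to all 18 arrays (x axis), KO minus WT at each stage on the left and 12 minus 6 weeks in each genotype on the right. The intervals of Cd74 and H2-Ab1 at 6 weeks, of Ciita at 12 weeks and of Cd74 between stages in KO lie off 0, and no difference shown passed after adjustment over all genes.

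Between stages, WT and KO arrays were compared separately. In WT the median difference of the 7 genes, 12 minus 6 weeks, was −0.29 beside 0.009 over all genes, with 4 of 7 lower at 12 weeks. None passed, against 0.0184% of all genes (3 genes), and none had p under 0.05 without adjustment, as 1380 genes did. None had stages without overlap, against 2.49% of all genes. H2-Ab1 differed by −0.56 ± 0.39 (SE), H2-DMb1 by −0.53 ± 0.37, H2-DMa by −0.49 ± 0.31 and Cd74 by −0.29 ± 0.61. On the gene medians H2-Aa, H2-Eb1 and Ciita were higher by 0.14 to 0.18. Of the 5 probe sets of H2-Aa, however, 4 were lower at 12 weeks, with differences from −0.46 to 0.12. Lower probe sets numbered 3 of 7 for H2-Eb1 and 12 of 27 for Ciita.

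In KO the median difference, 12 minus 6 weeks, was 0.41 beside 0.016 over all genes, with 5 of 7 higher at 12 weeks. None passed, against 0.00614% of all genes (1 gene), and none had stages without overlap, against 3.91% of all genes. Cd74 was higher at 12 weeks by 1.38 ± 0.64 (SE; limma adjusted p = 0.665), the 1 member of 7 with unadjusted p under 0.05, as for 1219 genes. H2-Ab1 was higher by 0.67 ± 0.41, H2-Eb1 by 0.49 ± 0.45 and H2-Aa by 0.41 ± 0.41. H2-DMa, counted among the 5 at 0.075, had all 6 probe sets lower at 12 weeks, from −0.52 to −0.08, so its sign is not settled. Ciita differed by −0.40 ± 0.22, lower at 12 weeks, which did not pass either. Without KO replicate 1 of 6 weeks, the lowest of the 18 arrays for Cd74, H2-Aa and H2-Ab1, the median was 0.023 and Cd74 0.67.

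The interaction, the KO difference at 12 weeks minus that at 6 weeks, tests whether the genotype difference itself depends on the stage. Cd74 gave 1.66 ± 0.88 (SE; limma adjusted p = 0.926) and H2-Ab1 1.22 ± 0.56 (unadjusted p = 0.0425, limma adjusted p = 0.920). Ciita gave −0.58 ± 0.30, and 6 of 7 members were above 0 with a median of 0.45. No member and no gene at all passed (0% of 16281), while 845 genes and 1 member had p under 0.05 without adjustment. So the smaller gap at 12 weeks is not shown to differ from that at 6 weeks.

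On the gene medians, the order of the group means was shared by some members only. For Cd74 and H2-Ab1 it was WT at 6 weeks, WT at 12 weeks, KO at 12 weeks and KO at 6 weeks, from 7.31 to 5.36 and from 7.29 to 5.97. For H2-Aa it was WT at 12 weeks (7.29), WT at 6 weeks (7.12), KO at 12 weeks (6.72) and KO at 6 weeks (6.31). Neighbours in these 3 orders were closer than the SD of either group, except KO at 12 and at 6 weeks for Cd74 (1.38 apart) and H2-Ab1 (0.67 apart). H2-Eb1 ran from 5.46 in WT at 12 weeks over 5.36 in KO at 12 weeks and 5.32 in WT at 6 weeks to 4.86 in KO at 6 weeks. H2-DMa (6.12) and H2-DMb1 (6.63) were highest in WT at 6 weeks and lowest in WT at 12 weeks (5.63 and 6.10). Ciita ran from 4.55 in WT at 12 weeks over 4.45 in KO and 4.36 in WT at 6 weeks. Its lowest mean, 4.05, was in KO at 12 weeks, not the lowest group of the chains. The orders depended on the gene summary. The brightest probe sets of H2-Aa (9.28, 8.82, 8.49 and 6.97) and H2-Eb1 (8.67, 8.55, 8.30 and 7.21) had the order of Cd74 and H2-Ab1. Those of H2-DMa, H2-DMb1 and Ciita did not.

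Across arrays, 4 members varied together. The class II score of an array is the mean of the 7 genes' log2 values, each gene first centred at 0 over the arrays. Over the 18 arrays the Pearson correlation of a member with the score of the other 6 was 0.939 for H2-Ab1, 0.814 for H2-Eb1, 0.812 for H2-Aa and 0.793 for Cd74, but 0.521 for H2-DMb1, 0.352 for H2-DMa and −0.25 for Ciita. These are descriptions over 18 arrays that share tissue, genotype and stage. The score was highest in WT replicate 3 of 6 weeks (1.25), WT replicate 5 of 12 weeks (0.70) and KO replicate 4 of 12 weeks (0.45), and lowest in KO replicate 1 of 6 weeks (−0.92) and WT replicate 3 of 12 weeks (−0.60). High and low arrays thus occurred in both genotypes.

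The genes most like the score over the 18 arrays were Clec7a (r = 0.89), the β-glucan receptor dectin-1, Crip1 (0.867), Cd52 (0.835), a small glycoprotein of leukocytes, Rab7b (0.835), a GTPase of late endosomes, Apobec1 (0.829), Apoc2 (0.826), an activator of lipoprotein lipase, Mcoln2 (0.823), a channel of endosomes, and Lyz2 (0.819), the lysozyme of myeloid cells. Clec7a differed by −1.12 ± 0.54 (SE) between genotypes at 6 weeks and −0.11 ± 0.43 at 12 weeks, and Rab7b by −1.37 ± 0.39 and −0.44 ± 0.31. None of these 8 genes passed in either genotype comparison. With the group means taken out, the 8 were AW112010 (0.884), Clec7a (0.867), Cd68 (0.86), Itgax (0.858), Rgs16 (0.857), B2m (0.851), Crip1 (0.847) and Cd52 (0.84). Of these Itgax, an integrin chain of dendritic cells and activated microglia, was lower in KO by 2.60 ± 0.52 at 6 weeks (limma adjusted p = 0.0878) and fell with the knockout at 12 weeks by 2.03 ± 0.41 (limma adjusted p = 0.0355). B2m, the light chain of MHC class I, was higher in KO by 0.41 ± 0.22 and 0.74 ± 0.18 (limma adjusted p = 0.940 and 0.0713).

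The rest of the class II pathway did not share the members' direction at 6 weeks. Of 27 further genes (accessory class II chains, endosomal proteases, ubiquitin ligases, promoter factors, costimulators and class II receptors) 26 were tested and none passed in any comparison. At 6 weeks 23 of 26 were higher in KO with a median log2 difference of 0.22, and at 12 weeks 18 of 26 with 0.12. The smallest p were those of the proteases that cut the invariant chain and of Lag3, a class II receptor. Ctss, cathepsin S, was higher in KO by 0.84 ± 0.26 (SE) at 6 weeks and 0.70 ± 0.21 at 12 weeks (limma adjusted p = 0.654 and 0.185). Lag3 was higher by 0.96 ± 0.36 and 1.01 ± 0.28 (adjusted p = 0.759 and 0.144), Ctsl, cathepsin L, by 0.84 ± 0.35 and 0.83 ± 0.28, and Lgmn, an asparaginyl endopeptidase, by 0.78 ± 0.34 and 0.70 ± 0.27. Of the factors that bind the X and Y boxes, Rfx5, Rfxap, Rfxank, Nfya, Nfyb, Nfyc and Creb1, the differences were 0.02 to 0.36 at 6 weeks and −0.13 to 0.16 at 12 weeks. H2-Oa and H2-Ob, which form the inhibitor of H2-DM, were higher in KO by 0.685 and 0.683 at 6 weeks and 0.32 and 0.34 at 12 weeks, with no pass.

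Genes of the interferon-γ axis, which induces Ciita, were mostly higher in KO. Of 23 tested, 19 were higher at 6 weeks with a median of 0.44 and none passed. At 12 weeks 18 were higher with a median of 0.59, and 3 passed. These were 2 GTPases, Igtp (1.45 ± 0.29 SE, limma adjusted p = 0.0333) and Iigp1 (1.26 ± 0.26, limma adjusted p = 0.0382), and the chemokine Cxcl10 (1.69 ± 0.34, limma adjusted p = 0.0355). Ciita had its lowest mean in that same group, KO at 12 weeks. The correlation of the axis score with the class II score was 0.022 over the 18 arrays and 0.48 with the group means taken out.

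The cells that could carry class II were read from marker lists, since in bulk tissue fewer cells of a type and less RNA per cell cannot be told apart. Pan-myeloid markers were higher in KO, 13 of 14 at 6 weeks (median 0.86, none passed) and 12 of 14 at 12 weeks (median 0.96), where Itgam (1.76 ± 0.27, SE; limma adjusted p = 0.00553) and Laptm5 (1.54 ± 0.30; 0.0308) passed. Their mean level per array was 7.12 to 8.80 in WT and 8.03 to 9.39 in KO at 6 weeks. Microglia markers were higher by a median of 1.93 at 6 weeks and 1.66 at 12 weeks, with 3 and 6 of 9 passing. The median difference of the 7 class II genes was −0.46 and −0.10 at these stages; at 12 weeks its sign is not settled, since it was 0.087 without WT replicate 5, 0.27 in the second run and 0.17 within females. Inside the groups the scores varied together: the correlation of the class II score with the pan-myeloid score was 0.269 over the 18 arrays and 0.794 with the group means taken out. Other lists also correlated with it on the latter basis, at 0.682 for the wider class II pathway, 0.538 for astrocyte markers and 0.503 for microglia markers. T cell markers gave 0.015 and neuron markers −0.046. The class II score minus the pan-myeloid score, looked at after these values were seen, was 0.53 to 0.73 in WT and −1.34 to −0.41 in KO at 6 weeks, and 0.14 to 1.08 in WT and −0.84 to −0.04 in KO at 12 weeks. On this difference all 9 WT arrays lay above all 9 KO arrays, but 7 of the 9 WT arrays had pan-myeloid scores below those of all KO arrays, and it is given as a description with no test.

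**Figure D4:**
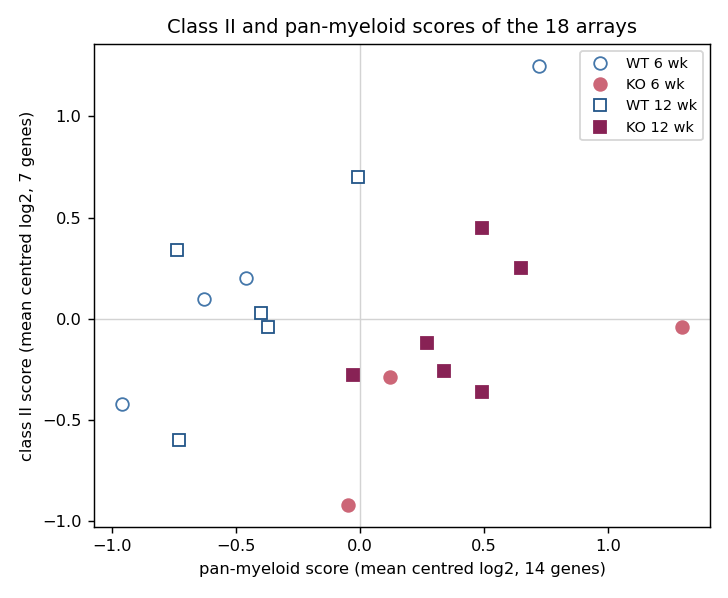
Class II score (y axis, mean centred log2 value of the 7 genes) against pan-myeloid score (x axis, the same over 14 marker genes), 1 symbol per array. Circles are 6 weeks, squares 12 weeks, open symbols WT and filled symbols KO. Of the 9 WT arrays 7 lie at pan-myeloid scores of −0.96 to −0.37, below every KO array, whose scores start at −0.05, so few arrays can be compared at a like score. With the group means taken out the scores correlate at 0.794.

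Markers of the cells that hold most class II outside the microglia were mostly dim. Of 11 dendritic cell markers measured, 4 (Xcr1, Clec9a, Irf4 and Klrd1) were under the filter, the list's mean per array was 3.67 to 4.32 over all groups, and its median difference was −0.10 at 6 weeks (5 of 7 tested lower) and −0.07 at 12 weeks. Of 9 B and plasma cell markers 3 (Cd79a, Ms4a1 and Jchain) were under it, with list means of 3.47 to 4.36 and medians of 0.10 and −0.16. Of 6 blood monocyte markers 2 (Ccr2 and Chil3) were under it, with list means of 3.44 to 4.33 and medians of −0.12 and 0.13. Border macrophage markers had list means of 3.59 to 4.27 in WT and 4.02 to 4.97 in KO, with Cd163 and Clec4n under the filter; 6 of 8 were higher in KO at each stage (medians 0.72 and 0.68), and Stab1 passed at 12 weeks. T cell markers had list means of 4.37 to 5.00 and medians of 0.28 and −0.18. Bright genes raise these list means. Group means were 10.18 to 10.77 for Thy1 among the T cell markers and 6.25 to 7.60 for Cd24a among the dendritic ones. They were 5.66 to 6.88 for Ighm among the B cell markers and 6.11 to 6.76 for Vcan among the monocyte ones. At 12 weeks Ighm was higher in KO by 1.215 ± 0.31 (SE; limma adjusted p = 0.0985), while 4 of the 6 B and plasma cell markers tested were lower. None of the dendritic, B, monocyte or T cell markers passed in any comparison, and their part in the class II values was not tested.

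Markers of neighbouring tissue also differed between arrays. Choroid plexus markers had list means of 5.95 to 9.56 in WT and 6.03 to 7.14 in KO at 6 weeks, 7 of 8 being lower in KO (median −0.52). Myelin genes were 8.32 to 10.52 in WT and 7.86 to 9.72 in KO at that stage, 8 of 9 being lower (median −0.55). At 12 weeks 7 of 8 choroid plexus markers were higher in KO (median 0.81) and 7 of 9 myelin genes (median 0.32). The interaction was above 0 for 8 of 8 (median 1.36) and 9 of 9 (median 0.76), as for 6 of the 7 class II genes. None passed in any of these comparisons. The class II score correlated with the choroid plexus score at −0.245 and with the myelin score at 0.002 over the 18 arrays, and at −0.377 and −0.059 with the group means taken out. Their part in the class II differences was not tested. All 5 H2 members lie on chromosome 17, as Trem2 does, while Cd74 lies on 18 and Ciita on 16.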

How the data were processed

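Per the labels' protocols, RNA was column-purified, amplified with a whole-transcript kit for low input, and biotinylated. The values are the authors' deposited log2 probe-set signals, 241576 probe sets on each of 18 arrays; how background, normalization and probe summary were handled is not given in the sources used. The medians of the arrays lay between 5.26 and 5.41, and no further normalization was applied. Of the probe sets 212097 had 1 symbol in the platform annotation, 4475 several and 25004 none, and the first kind was used, with 2742 symbols updated through RefSeq (GRCm38.p6). Gene values are medians of probe sets. The dimmest 20% of genes (mean log2 of 3.41 or less) were left out.

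One limma model (3.58.1, R 4.3.3) with 4 group means was fitted to 16281 genes on all arrays, with 14 residual degrees of freedom, two-sided tests, Benjamini-Hochberg adjustment over these genes and a threshold of 0.05. The steps were tested on simulated data. Alternatives tried were other filters, normalizations, gene summaries and spread estimates, array weights, samples, sex, run, replicate block, threshold and each array left out. Members and marker lists were chosen with earlier results of these data known. Named beside the members are up to 4 genes of a list with the smallest p, genes that passed, and the 8 most like the score under each basis, passing over clone names; Rfx and NF-Y factors, H2-Oa, H2-Ob, H2-Ea, B2m and marker genes under the filter were given for their role. Tables and plots were made with matplotlib 3.10.9, pandas 2.3.3 and numpy 2.4.6 under Python 3.11.15.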

Additional observations from a re-analysis of the deposited data

Results flagged for a closer look

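Of 24 sets of arrays of 1 gene and 1 group (4 to 6 arrays each), 1 held an array far from the rest. Cd74 in WT replicate 3 of 6 weeks was 8.75 while the other 3 WT arrays of that stage were 6.81 to 6.87. Chance places about 1 in 20 such sets there. The same array was also the highest of its group for H2-Aa, H2-Ab1, H2-Eb1, H2-DMa and H2-DMb1.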

How the results depend on the processing

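No member passed in any comparison under any alternative run, an adjusted p of 0.10 included. The lowest adjusted p of a member over all alternatives was 0.193, for Ciita at 12 weeks with only the arrays of the groups compared. Cd74, H2-Aa, H2-Ab1 and H2-Eb1 were lower in KO at 6 weeks under all 31 alternatives that gave a value. The stricter filter left Ciita out. Replicate numbers gave no clear sign of paired arrays (2 of 15 pairs correlated over 0.1, from −0.36 to 0.24), though this check cannot exclude pairing. With the replicate block the 6-week median of the members was −0.45 and no member passed.

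The median at 6 weeks was −1.46 with the brightest probe set, −1.02 without both WT_6w replicate 4 and KO_6w replicate 2, and −0.80 to −0.046 with single arrays left out. For stage in KO it was 1.04 with the brightest probe set and 0.023 to 0.63 with single arrays left out. For the interaction it was 1.21 with the brightest probe set, 1.22 without both arrays and 0.19 to 0.94 with single arrays left out. With single arrays left out the median ran from −0.33 to 0.087 at 12 weeks and from −0.54 to 0.11 for stage in WT.

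Signs turned in other settings. With the mean of the probe sets, H2-DMa was 0.14 at 6 weeks, −0.25 for stage in KO and −0.064 for the interaction, and H2-Aa −0.24 for stage in WT. With the brightest probe set, H2-DMa was −0.33 at 12 weeks, −0.52 for stage in KO and −0.31 for the interaction, and for stage in WT H2-Aa was −0.46 and H2-Eb1 −0.12. With array weights H2-DMb1 was 0.30 for stage in KO. With deposition run as a covariate, H2-Aa was −0.071 and H2-Eb1 −0.057 for stage in WT, and H2-DMa −0.021 for stage in KO. Without both arrays, H2-Aa was −0.051 and H2-Eb1 −0.20 for stage in WT, and H2-DMb1 0.52 for stage in KO. The cause was not tested.

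Signs also turned when single arrays were left out. At 6 weeks Ciita ran from −0.10 to 0.24, H2-DMa from −0.61 to 0.08 and H2-DMb1 from −0.82 to 0.14. At 12 weeks Cd74 ran from −0.69 to 0.036, H2-Ab1 from −0.33 to 0.087, H2-Eb1 from −0.33 to 0.18 and H2-DMb1 from −0.001 to 0.35. For stage in WT Cd74 ran from −0.61 to 0.19, H2-Aa from −0.051 to 0.62 and H2-Eb1 from −0.20 to 0.55. For stage in KO H2-DMa ran from −0.17 to 0.45 and H2-DMb1 from −0.44 to 0.52. For the interaction H2-Aa ran from −0.21 to 0.63 and H2-Eb1 from −0.054 to 0.69.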
